A study of Mus musculus with 4 samples.

Results

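The surface receptors through which macrophages sense RANKL, M-CSF, GM-CSF, G-CSF and TNF were followed as messenger RNA, together with TRAF6, the adaptor of RANK. The 8 genes, taken by name from the deposited table of 34745 mouse genes, were Tnfrsf11a, Traf6, Csf1r, Csf2ra, Csf2rb, Csf3r, Tnfrsf1a and Tnfrsf1b. All 8 were found once in the table and all 8 had enough counts to be tested. The cells were bone marrow derived macrophages (BMMs) from male wild-type C57BL/6 mice aged 8 weeks, kept without FBS for 12 h. They were then given complete medium with RANKL at 100 ng/mL for 24 h, together with dimethyl itaconate (DI), a membrane-permeable form of itaconate, or with vehicle, labelled DMSO. The labels give the dose of DI as 20 mM and the methods of the study as 20 μM. Each group, RANKL+DI and RANKL+Veh, had 2 libraries, and all 4 libraries came from cells that had received RANKL, so the resting level of the receptors was not measured. The methods use M-CSF to obtain BMMs and, with RANKL, to form osteoclasts. The description of the cultures for sequencing names RANKL and no added M-CSF, so whether M-CSF was present over the 24 h is not stated. The methods speak in general of independent biological repeats for work in culture, in a larger number than the libraries here, and the labels do not say whether the libraries of a group came from separate mice or cultures. The p-values then measure the spread between these libraries, which may be technical.

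RANK, encoded by Tnfrsf11a, receives RANKL and recruits TRAF6, a ubiquitin ligase that hands the signal on to NF-kB and MAP kinases, and this signal commits a macrophage to the osteoclast lineage. The M-CSF receptor, a tyrosine kinase encoded by Csf1r, keeps the precursors alive and its signal raises the amount of RANK. GM-CSF acts through a ligand-binding chain (Csf2ra) and a signalling chain shared with IL-3 and IL-5 (Csf2rb), and can hold precursors back from the osteoclast fate. TNF binds TNF receptor 1 (Tnfrsf1a), which carries a death domain, and TNF receptor 2 (Tnfrsf1b), which does not and binds TRAF2. The G-CSF receptor (Csf3r) is best known from neutrophils. Directions below are of RNA with DI relative to RNA with vehicle, and in such bulk samples fewer cells that express a gene and less of its RNA per cell cannot be told apart.

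The starts of the 2 genes with the clearest changes, described below, are shown as the 250 bases before the RefSeq start site (GRCm38.p6, 5′ to 3′ on the strand of the gene). That of Tnfrsf11a is chr1:105780473-105780722 on the plus strand and that of Tnfrsf1b is chr4:145246871-145247120 on the minus strand. Capitals mark the letters GGGCGG or their reverse complement CCGCCC, the core of a site for the factor Sp1.
Tnfrsf11a: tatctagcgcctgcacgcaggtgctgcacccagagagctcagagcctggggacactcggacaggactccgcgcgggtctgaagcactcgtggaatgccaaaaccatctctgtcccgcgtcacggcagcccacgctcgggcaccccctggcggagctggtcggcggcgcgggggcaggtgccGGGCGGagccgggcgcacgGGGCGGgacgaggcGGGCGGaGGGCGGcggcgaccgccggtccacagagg
Tnfrsf1b: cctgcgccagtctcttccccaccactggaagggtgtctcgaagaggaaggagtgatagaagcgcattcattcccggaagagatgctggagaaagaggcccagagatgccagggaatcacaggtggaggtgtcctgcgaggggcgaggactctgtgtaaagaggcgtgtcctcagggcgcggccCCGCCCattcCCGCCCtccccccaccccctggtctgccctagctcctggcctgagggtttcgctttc
The Tnfrsf11a stretch is richer in G and C, at 73.6%, than that of Tnfrsf1b, at 62.8%, and holds 4 of these cores against 2. Neither has a TATA box (TATAAA). RefSeq promoters were matched for 6 of the 8 genes. Of 32851 mouse promoters of 300 bases (250 before and 50 after the start), 35.7% held GGGCGG on either strand and 13.6% held TATAAA. An antioxidant response element core (TGACNNNGC, in 12.4% of all promoters), an AP-1 site (TGANTCA, 7.81%), a PU.1-type Ets site (GAGGAAGT, 3.2%) and an NF-kB site (1.63%) were looked for on both strands too, each as a fixed pattern of letters. None of the 6 windows held a match to these patterns. The windows of Traf6, Csf3r, Tnfrsf1b and Csf2ra held the PU.1-type letters except for the last. Variants of these sites were not looked for, so the search cannot show that a promoter lacks a PU.1, NF-kB or other such site.

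The libraries held between 16085692 and 19403480 counts. TMM factors, which scale a library to the bulk of its genes, were 0.963 and 0.967 with DI against 1.04 and 1.04 with vehicle, and levels between libraries are given as CPM, counts scaled to a common library total, after this adjustment. With DI, 14.8% of the 12590 tested genes passed edgeR's quasi-likelihood test at an adjusted p of 0.05, 899 upward (7.14%) and 969 downward (7.7%). With scaling to library size only the split was 548 upward and 1932 downward, and the median over all tested genes was then -0.10 (log2) in place of 0.0012. The label of macrophages was met by their markers: all 10 were tested, of which 5 were higher with DI and 2, Cd14 (-0.51) and Fcgr1 (-0.60), were lower. Their summed level was 27916 and 28766 CPM with DI and 22634 and 21823 CPM with vehicle, most of it Lyz2 (22772 and 23786 against 18289 and 17630 CPM). Of 10 osteoclast markers, 8 were tested, 5 were lower with DI and 2 were higher, and Calcr was at 0 in every library.

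**Figure D1:**
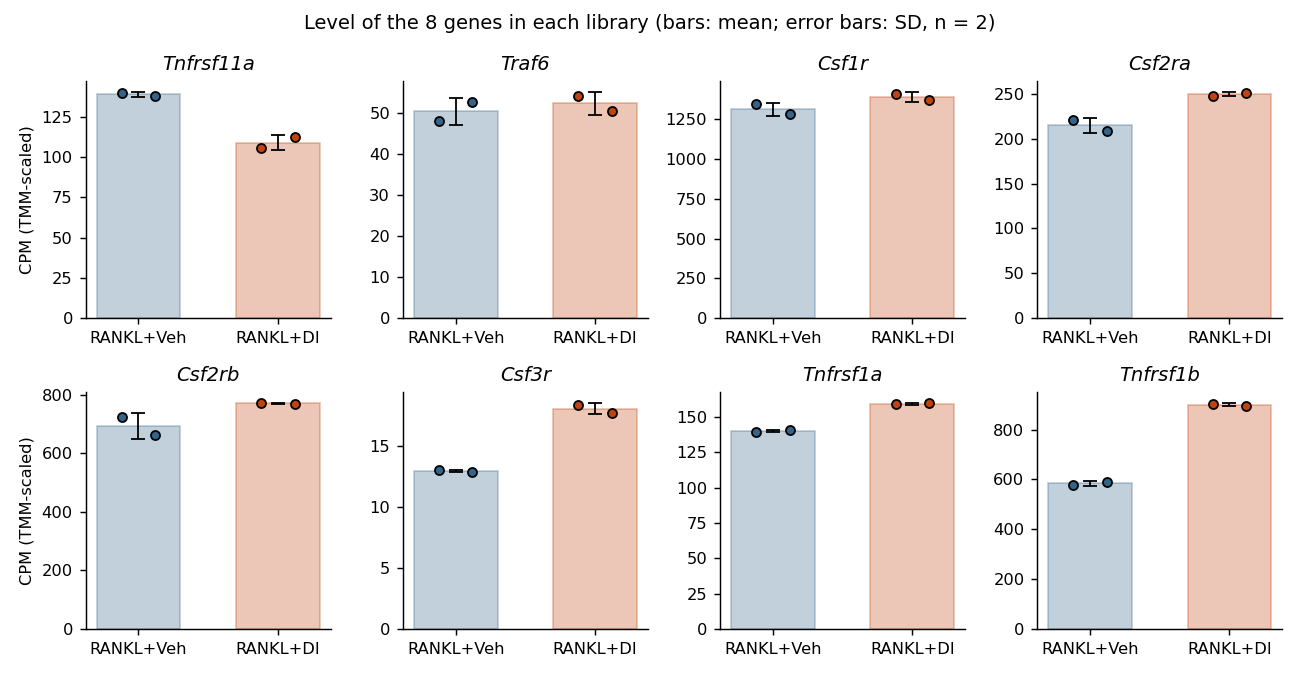
CPM of each of the 8 genes on the TMM scale, with a point for each library, bars at the group mean and error bars of 1 SD (n = 2). The groups lie apart for every gene except Traf6, and the gap is widest in proportion for Tnfrsf1b (584 against 900 CPM) and Csf3r (12.9 against 18.0 CPM).

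With DI, RNA for the RANKL receptor was lower and RNA for TNF receptor 2 was higher, in the main test and in each of the 15 alternative settings and left-out libraries. RNA for TNF receptor 1, the G-CSF receptor and the ligand-binding chain of the GM-CSF receptor was higher in the main test. These last calls were each lost in several of the alternatives, as given below. By edgeR's quasi-likelihood test with Benjamini-Hochberg adjustment over all tested genes, 4 of the 8 genes were higher and 1 was lower at an adjusted p under 0.05, which is 62.5% of them beside 14.8% of all tested genes. The 8 genes were chosen with earlier results of these data known, so this share is no independent result. It also depended on the setting, with 2 of the 8 called with the replicate block and 6 without a low-count filter. For 7 of the 8 genes the DI and vehicle libraries lay apart, as they did for 58.6% of the genes tested. Apart from Csf3r, the genes had more counts than at least 67.9% of tested genes, and deeper genes are measured with less error. The median log2 fold change of the 8 genes was 0.17. The changes were small as fold changes, at log2 values between -0.35 and 0.62. Over all tested genes the median absolute log2 fold change was 0.16, and 8.38% of them changed by more than Tnfrsf1b did.

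**Figure D2:**
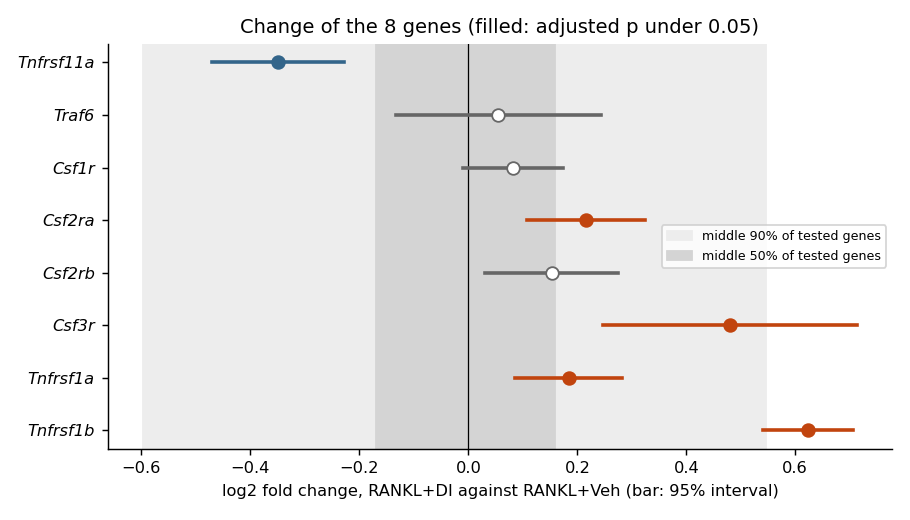
Log2 fold change of each gene, RANKL+DI against RANKL+Veh, with its 95% interval from the edgeR fit, over bands that hold the middle 50% (-0.17 to 0.16) and the middle 90% (-0.60 to 0.55) of all tested genes. Filled points passed an adjusted p of 0.05. Tnfrsf11a is the filled point below 0, and Tnfrsf1b, at 0.62, is the point beyond the wider band.

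Tnfrsf11a (ENSMUSG00000026321) lies on chromosome 1 from 105780718 to 105847981 on GRCm38, where its exons form 10 separate blocks. It was counted 1813 and 2109 times in the RANKL+DI libraries and 2606 and 2299 times in the RANKL+Veh libraries. On the TMM scale this was 106 and 112 CPM with DI and 140 and 138 CPM with vehicle. Both DI libraries thus lay under both vehicle libraries, and the vehicle libraries were the closer pair. The level fell by 21.5%, from 139 ± 1.33 to 109 ± 4.84 CPM (SD, n = 2 each), giving a log2 fold change of -0.35 (standard error, SE, 0.050, 95% interval -0.47 to -0.23, adjusted p = 0.00834, edgeR). It was called lower in each of the 15 alternative settings and left-out libraries, with log2 fold changes from -0.45 to -0.30. Of the 5 osteoclast markers that were lower, Ocstamp, a membrane protein of precursor fusion, had a log2 fold change of -2.52, and Mmp9, a matrix protease, -1.64. Acp5, the tartrate-resistant acid phosphatase, was at -0.95, Ctsk, the collagen-cleaving protease, -0.58 and Nfatc1, the master transcription factor of osteoclasts, -0.43. Itgb3, a chain of the vitronectin receptor, and Atp6v0d2, a proton pump subunit, went the other way, at 0.56 and 0.27. The part of a changed share of osteoclast precursors in the level of Tnfrsf11a was not tested.

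Traf6 (ENSMUSG00000027164, chromosome 2 from 101678429 to 101701669) stood apart from its receptor. It was counted 930 and 944 times in the DI libraries and 895 and 876 times in the vehicle libraries, or 54.2 and 50.3 CPM against 48.0 and 52.6 CPM. The groups overlapped. The log2 fold change was 0.055 (SE 0.077, adjusted p = 0.688, edgeR), with a 95% interval of -0.13 to 0.24, which leaves room for a decrease of 8.83% or an increase of 18.3%. Its sign turned with scaling by library size only (-0.049), so no direction is given for it. In each library, the FPKM (a level per gene length, scaled to the library total) of Traf6 can be divided by that of Tnfrsf11a, and the scaling between libraries cancels. This ratio was 0.368 and 0.321 with DI and 0.246 and 0.273 with vehicle, so that the adaptor was higher relative to the receptor in both DI libraries, 1.33 times on average.

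Csf1r (ENSMUSG00000024621, chromosome 18 from 61105572 to 61132149) was the most abundant of the 8 genes per length. It was counted 24200 and 25657 times in the DI libraries and 25003 and 21381 times in the vehicle libraries. These are 1410 and 1368 CPM against 1342 and 1284 CPM, and the lower DI library was just above the higher vehicle library. The log2 fold change was 0.081 (SE 0.037, adjusted p = 0.211, edgeR). Its 95% interval, a change of -0.725% to 12.8%, holds no change of the size seen for Tnfrsf11a or Tnfrsf1b. Under library size only it was -0.022, so its sign depends on the scaling. Part of its exons, 15.1%, overlaps Hmgxb3 on the opposite strand, a gene with at most 744 counts in a library, and no source says that strand was used in counting. Set against Csf1r within each library, the FPKM of Tnfrsf11a was 0.0701 and 0.0770 of it with DI and 0.0976 and 0.101 of it with vehicle. The RANKL receptor was thus lower relative to the M-CSF receptor in both DI libraries, 0.742 times the vehicle ratio on average.

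**Figure D3:**
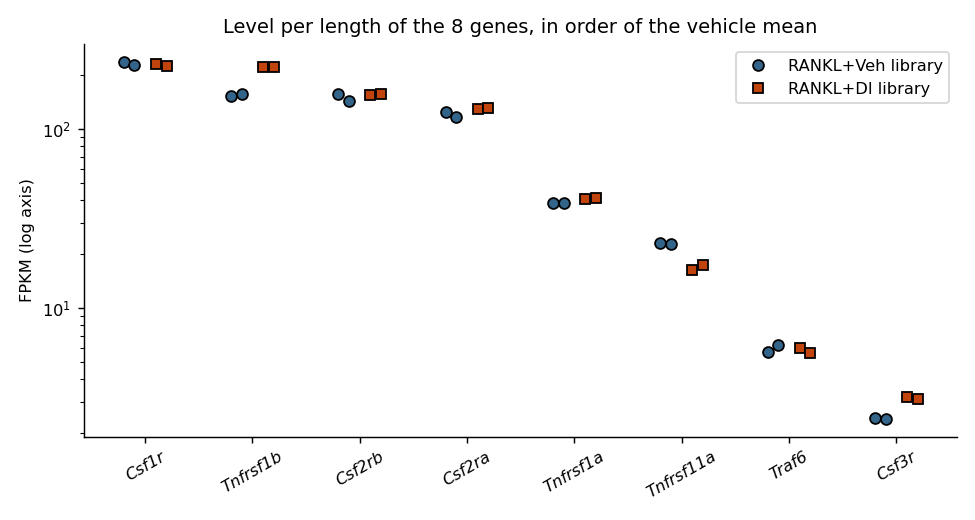
FPKM of the 8 genes in every library on a log axis, in order of the vehicle mean. Csf1r is highest (227 to 237 with vehicle) and Csf3r lowest (2.41 and 2.44), and Tnfrsf1b moves from beside Csf2rb with vehicle to beside Csf1r with DI.

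Both chains of the GM-CSF receptor were higher in the DI libraries, and only the ligand-binding chain passed the test. The 95% intervals of their log2 fold changes overlapped, at 0.11 to 0.32 for Csf2ra and 0.030 to 0.27 for Csf2rb. A difference between the chains was not tested. Csf2ra (ENSMUSG00000059326, chromosome 19 from 61224402 to 61228418) was counted 4255 and 4706 times in the DI libraries and 4112 and 3477 times in the vehicle libraries. On the TMM scale it was at 248 and 251 CPM with DI and 221 and 209 CPM with vehicle, and the groups did not overlap. It rose by 16.1% (log2 fold change 0.22, SE 0.044, adjusted p = 0.0271, edgeR). The call was lost under library size only (0.11, adjusted p = 0.135), and without either DI library or without vehicle replicate 2 (adjusted p between 0.0567 and 0.0997, edgeR). Csf2rb (ENSMUSG00000071713, chromosome 15 from 78325990 to 78351000) was counted 13231 and 14421 times in the DI libraries and 13494 and 11008 times in the vehicle libraries. It was at 771 and 769 CPM with DI and 724 and 661 CPM with vehicle, and the vehicle libraries differed most. Its log2 fold change of 0.15 (SE 0.050, 95% interval 0.030 to 0.27) did not pass, with an adjusted p of 0.101 (edgeR). Without vehicle replicate 1 it was 0.22 and passed (adjusted p = 0.0308, edgeR), and without vehicle replicate 2 it was 0.089.

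Mice carry a second signalling chain gene beside Csf2rb, Csf2rb2 (ENSMUSG00000071714, chromosome 15 from 78282517 to 78305603), whose product serves IL-3. Over 63.3% of the Csf2rb transcript the 2 genes are at least 95% identical, so reads can be split wrongly between them. Csf2rb2 was counted 11476 and 12241 times in the DI libraries and 11588 and 9898 times in the vehicle libraries, or 669 and 653 CPM against 622 and 594 CPM. The log2 fold change was 0.12 (SE 0.039, adjusted p = 0.0998, edgeR), close to that of Csf2rb. When the counts of both genes were summed, the log2 fold change was 0.14 (adjusted p = 0.0862, edgeR), and the call did not change. Within libraries, the FPKM ratio of Csf2rb to Csf2ra was 1.21 and 1.19 with DI and 1.27 and 1.23 with vehicle, so the chains stayed near the same proportion, at 0.958 times the vehicle ratio. The ratio of Csf2rb to Csf1r was 0.673 and 0.692 with DI and 0.664 and 0.634 with vehicle.

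Csf3r (ENSMUSG00000028859, chromosome 4 from 126024550 to 126044440) was the least abundant of the 8 genes. It was counted 315 and 332 times in the DI libraries and 242 and 214 times in the vehicle libraries, which is 3.20 and 3.10 FPKM against 2.44 and 2.41 FPKM. Both groups were tight and lay apart. On the TMM scale its level rose by 39.5%, from 12.9 ± 0.102 to 18.0 ± 0.457 CPM (SD, n = 2 each), with a log2 fold change of 0.48 (SE 0.095, adjusted p = 0.0242, edgeR). With any library left out the log2 fold change lay between 0.46 and 0.51 and the adjusted p between 0.0606 and 0.0816 (edgeR), so the call needed all 4 libraries, and DESeq2's Wald test did not call it either (adjusted p = 0.0721). Part of the Csf3r transcript, 43.6%, has a copy at 95% identity or more in a transcript of AC105061.2. That gene was not found by name among the deposited genes, so the level of Csf3r is less certain. Of 10 neutrophil markers, 4 were tested and none was called. Their summed level lay between 9.39 and 11.2 CPM in the 4 libraries, with the groups overlapping, and Ly6g and Retnlg were at 0 in every library. Relative to Csf1r, the FPKM of Csf3r was 0.0138 and 0.0137 with DI and 0.0103 and 0.0106 with vehicle, 1.32 times as high on average.

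The receptors of TNF both rose, TNF receptor 2 by more. Tnfrsf1a (ENSMUSG00000030341, chromosome 6 from 125349362 to 125362484) was counted 2726 and 2994 times in the DI libraries and 2600 and 2345 times in the vehicle libraries. It was at 159 and 160 CPM with DI and 140 and 141 CPM with vehicle, with the groups apart and each group tight. This was a rise of 13.6% (log2 fold change 0.18, SE 0.040, adjusted p = 0.0331, edgeR). The call was lost under library size only (0.080, adjusted p = 0.221), with DESeq2's Wald test (adjusted p = 0.0753) and with any library left out (adjusted p between 0.0961 and 0.124, edgeR).

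Tnfrsf1b (ENSMUSG00000028599, chromosome 4 from 145213463 to 145246870) showed the largest change of the 8 genes. It was counted 15524 and 16778 times in the DI libraries and 10743 and 9840 times in the vehicle libraries, or 904 and 895 CPM against 577 and 591 CPM. Every DI library was far above every vehicle library. The level rose by 54.1%, from 584 ± 9.93 to 900 ± 6.81 CPM (SD, n = 2 each), giving a log2 fold change of 0.62 (SE 0.034, 95% interval 0.54 to 0.71, adjusted p = 5.60e-04, edgeR). It was called in each of the 15 alternative settings and left-out libraries, with log2 fold changes from 0.52 to 0.64. Within libraries, the FPKM ratio of Tnfrsf1b to Tnfrsf1a was 5.47 and 5.38 with DI and 3.97 and 4.03 with vehicle. The balance of the TNF receptors at the RNA level was thus 1.36 times further on the side of TNF receptor 2 with DI.

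**Figure D4:**
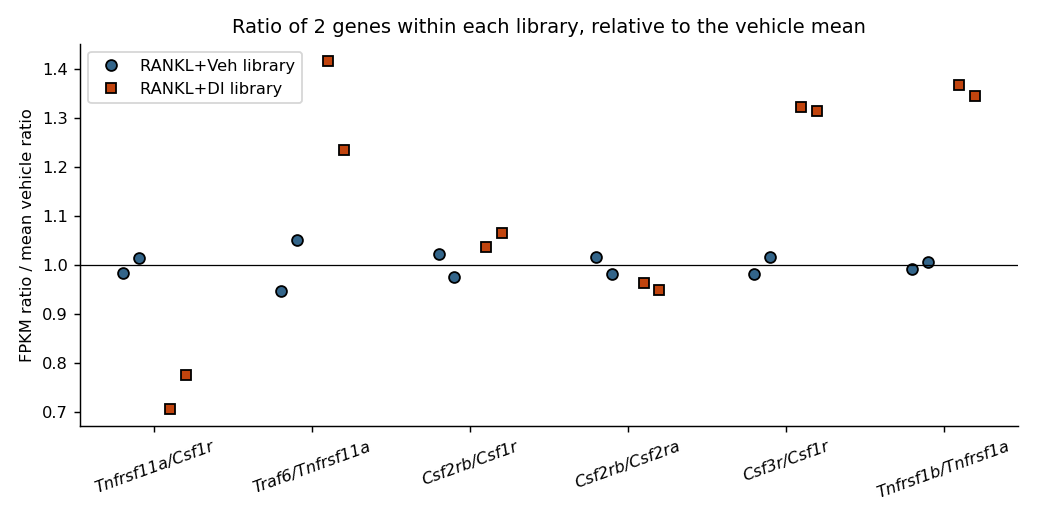
Ratio of the FPKM of 2 genes within each library, divided by the mean of that ratio in the vehicle libraries, so that the scaling between libraries cancels. The Tnfrsf1b/Tnfrsf1a and Csf3r/Csf1r ratios of the DI libraries lie near 1.36 and 1.32, the Tnfrsf11a/Csf1r ratios near 0.742, and the 2 ratios of Csf2rb near 1.

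For all 6 ratios the DI libraries lay apart from the vehicle libraries, and 58.6% of the tested genes taken singly did so too. The ratios share genes, so they are not separate results. No p is given for them, since 2 libraries against 2 cannot give an exact two-sided permutation p under 0.333. In order of FPKM with vehicle, the genes were Csf1r (232 ± 7.41), Tnfrsf1b (154 ± 2.56), Csf2rb (151 ± 9.83), Csf2ra (120 ± 4.80), Tnfrsf1a (38.6 ± 0.220), Tnfrsf11a (23.0 ± 0.229), Traf6 (5.97 ± 0.379) and Csf3r (2.42 ± 0.0200, SD, n = 2 each). Tnfrsf1b and Csf2rb overlapped in this order, and no other neighbours did. With DI the order of the means was the same, but Tnfrsf1b, at 221 ± 0.958 FPKM, stood far above Csf2rb, at 156 ± 0.256 FPKM, and next to Csf1r, at 228 ± 4.09 FPKM (SD, n = 2 each). FPKM values are scaled to the library total and not by TMM.

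RNA of the ligands was scarce or did not differ past the test. Tnf itself was counted 437 and 436 times in the DI libraries and 453 and 402 times in the vehicle libraries, giving a log2 fold change of 0.0070 (SE 0.085, adjusted p = 0.970, edgeR). Csf1, which encodes M-CSF, was counted 153 and 203 times in the DI libraries and 165 and 116 times in the vehicle libraries, giving a log2 fold change of 0.32 (SE 0.17, adjusted p = 0.279, edgeR). Il34, the other ligand of the M-CSF receptor, was counted 5 and 1 times in the DI libraries and 11 and 11 times in the vehicle libraries and was not called (adjusted p = 0.136, edgeR). Tnfsf11, which encodes RANKL, had at most 3 counts in a library, although all cells received RANKL as protein. Its decoy receptor Tnfrsf11b, osteoprotegerin, was counted 9 and 3 times in the DI libraries and 1 and 2 times in the vehicle libraries. Lta had at most 3 counts in a library, Ltb had at most 7, and Csf2, Csf3, Il3 and Il5 had 0 in every library. Where a gene had no count, 3 counts is the upper limit in that library, for counting error only.

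**Figure D5:**
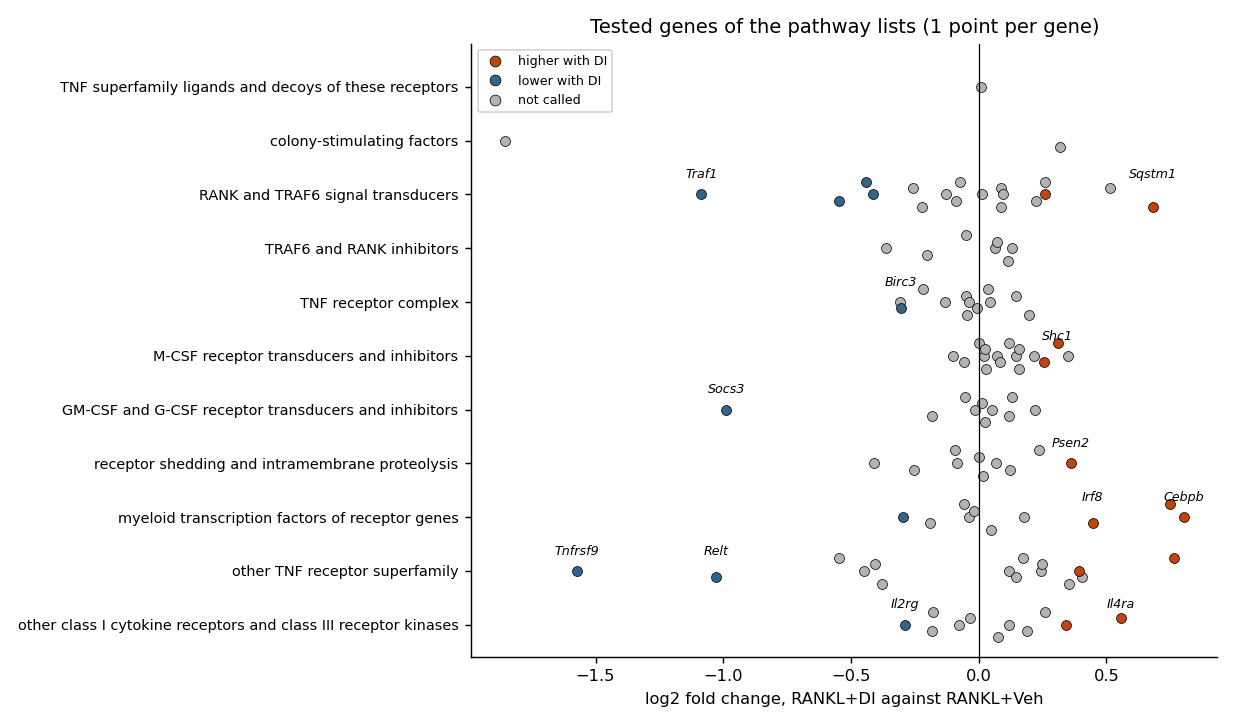
Log2 fold change of each tested gene of the 11 lists of ligands, transducers, inhibitors, proteases, transcription factors and related receptors, with 1 point per gene. Blue points are lower and orange points higher with DI at an adjusted p under 0.05 (edgeR). Most points are grey and near 0, and the lowest called points are Tnfrsf9 (-1.57) and Traf1 (-1.09).

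Downstream of RANK, the adaptors Traf1 and Traf2 fell, while Traf3 (-0.13) and Traf5 (0.26) did not pass the test. Among 19 RANK and TRAF6 signal transducers 18 were tested, 4 were lower and 2 were higher with DI (edgeR's quasi-likelihood test), which is 33.3% beside 14.8% of all tested genes, and their median log2 fold change was -0.032 beside 0.0012. The list was chosen with earlier results of these data known, so this share is no independent result. Traf1, a TRAF without a RING domain that is itself induced by NF-kB, fell from 82.8 and 105 CPM with vehicle to 47.3 and 41.0 CPM with DI, giving a log2 fold change of -1.09 (SE 0.13). Src, the kinase that osteoclasts need for their ruffled border, was at -0.55, and Traf2, the adaptor bound by TNF receptor 2, at -0.44. Rps27a, which encodes ubiquitin fused to a ribosomal protein, was at -0.42. Ribosomal protein genes have many processed copies, so its count may be uncertain, which was not tested. The call of Rps27a held in 11 of 15 alternatives. Sqstm1, the p62 scaffold that binds TRAF6, rose from 899 and 804 to 1365 and 1366 CPM, giving a log2 fold change of 0.68 (SE 0.056), and Tifa, which binds TRAF6, was at 0.26. The call of Tifa held in 5 of 15 alternatives and was lost with any library left out (adjusted p between 0.100 and 0.184, edgeR). Genes of TAK1 (Map3k7), its partners Tab1, Tab2 and Tab3, the ubiquitin-conjugating enzyme Ube2n and Gab2 did not pass. Map3k7 was at 0.51 (SE 0.31), with vehicle libraries at 32.6 and 67.7 CPM. Tab2 was at 0.22 (SE 0.13), with DI libraries at 126 and 170 CPM. A change of these 2 genes was thus poorly measured. Of 7 TRAF6 and RANK inhibitors, among them the deubiquitinases Cyld and Tnfaip3, none was called in either direction by edgeR, with a median log2 fold change of 0.065. Tank, a TRAF-binding inhibitor, was nearest to the threshold at -0.20 (adjusted p = 0.0524, edgeR), and was picked out after its value was seen.

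In the TNF receptor complex, 12 of 12 genes were tested and 1 was called, Birc3, a ubiquitin ligase bound to TRAF2, which was lower at -0.31 (median of the list -0.042). This is 8.33% beside 14.8% of all tested genes. Tradd, Ripk1, Fadd and Casp8, which assemble on TNF receptor 1, did not pass. Of 16 transducers and inhibitors of the M-CSF receptor, all tested, 2 were higher, namely the adaptors Shc1 (0.31) and Dok2 (0.25), and none was lower (median 0.10), which is 12.5% and under the share of all tested genes. The call of Shc1 held in 9 of 15 alternatives. The call of Dok2 held in 6 of 15 alternatives and was lost with any library left out (adjusted p between 0.0596 and 0.160, edgeR). Of 11 transducers and inhibitors of the GM-CSF and G-CSF receptors, 10 were tested and 1 was lower (10%, median 0.017). This was Socs3, the feedback inhibitor of the G-CSF receptor and of gp130, counted 128 and 107 times with DI and 249 and 211 times with vehicle, giving a log2 fold change of -0.99 (SE 0.16). Among 10 genes of receptor shedding and intramembrane proteolysis, which release M-CSF receptor and TNF receptors from the surface, 1 was called (10%), the presenilin gene Psen2, at 0.36, while Adam17, the main sheddase, was at -0.092 (adjusted p = 0.153, edgeR). The call of Psen2 held in 9 of 15 alternatives.

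Among 10 transcription factors that act on myeloid receptor genes, 3 were higher and 1 was lower with DI, which is 40% beside 14.8% of all tested genes, with a median log2 fold change of 0.014. This list was chosen with earlier results of these data known, so its share is no independent result. Cebpb rose from 86.2 and 87.4 CPM to 149 and 154 CPM (log2 fold change 0.80, SE 0.045) and Cebpa from 97.0 and 118 CPM to 193 and 168 CPM (0.75, SE 0.11). Both are C/EBP factors of the granulocyte and macrophage lineage. Irf8, a factor that restrains osteoclast formation, was at 0.45, and Klf4 was lower at -0.30, a call lost with any library left out (adjusted p between 0.100 and 0.143, edgeR). Spi1, which encodes PU.1, a factor for the promoters of Csf1r, Csf2ra and Csf3r, was at -0.040 (adjusted p = 0.586, edgeR).

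Most tested genes of the wider receptor families were not called. Of 25 other genes of the TNF receptor superfamily 24 were in the table and 15 were tested, of which 2 were higher and 2 lower (26.7% beside 14.8% of all tested genes, median 0.15). Tnfrsf26 rose from 36.6 and 37.2 CPM to 61.9 and 63.2 CPM (log2 fold change 0.76, SE 0.061), and Tnfrsf21, death receptor 6, was at 0.39. Tnfrsf9, the costimulatory receptor 4-1BB, fell from 97 and 65 counts with vehicle to 28 and 27 with DI (log2 fold change -1.57, SE 0.25), and Relt was at -1.03. The calls of Tnfrsf21 and Relt held in 12 and 13 of 15 alternatives. Of 18 other class I cytokine receptors and class III receptor kinases, 11 were tested, 2 were higher and 1 was lower (27.3%, median 0.076). Il4ra, of the IL-4 receptor, was at 0.56 and Il7r at 0.34, and Il2rg, the common gamma chain, was at -0.29. Over the 11 lists, 111 of 138 distinct genes were tested, 12 were higher and 10 lower, which is 19.8% beside 14.8% of all tested genes. All lists were chosen with earlier results of these data known.

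Over the 4 libraries, the genes nearest to Tnfrsf11a in centred log2 CPM were Rad21 of the cohesin complex, Xpo5, an export factor of microRNA precursors, and RP23-83P5.5, at distances of 0.029, 0.029 and 0.030 on the log2 scale. Nearest to Tnfrsf1b were Lipa, the lysosomal acid lipase, Il18 and H13, at 0.0063, 0.0088 and 0.022. Il18, with 34 to 59 counts in a library, and RP23-83P5.5, with 80 to 116, were not called (adjusted p = 0.0889 and 0.147, edgeR). The SEs of their log2 fold changes, 0.20 and 0.14, were far above these distances. These distances describe the same 4 libraries and scaling for every gene.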

How the data were processed

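Messenger RNA libraries of BMMs were sequenced from both ends. The unnormalised read counts per gene were taken as the authors deposited them, and the FPKM values the authors deposited, scaled to gene length and library total, served for levels between genes and ratios. The build is GRCm38 (mm10) per the labels, and the aligner and counter are not given in the sources used here. A second table that repeats these values was not used.

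The default low-count filter, TMM factors and quasi-likelihood test of edgeR 4.0.16 in R 4.3.3 were used, with the group as sole term and Benjamini-Hochberg adjustment over 12590 genes. Each SE is the log2 fold change over the root of F, with 2 residual degrees of freedom ahead of moderation. Between libraries of a group the chi-square per degree of freedom was 7.57 and 7.74, so their counts differed by more than sampling noise and each was counted as 1 sample. The fit was tested on simulated data with 100 changed genes at each size. It called 49% of those changed by 0.5 and 88% of those changed by 1 on the log2 scale, and 6.16% of its calls were false.

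The 8 genes and all lists were chosen with earlier results of these data known. Named genes were the 8, Csf2rb2, all listed ligands, and up to 6 called genes of each other list by absolute log2 fold change, plus the 3 genes nearest by Euclidean distance to Tnfrsf11a and to the gene of the 8 with the largest change. Genes named for not passing were picked after their values were seen. Alternatives were other scalings (size factors of DESeq2 1.42.0, upper quartile, library size), other filters (none, or 10 counts per library), other tests (Wald test of DESeq2, voom of limma 3.58.1, a robust fit, limma on log2(FPKM + 1) or log2(FPKM + 0.01)), the replicate number as a block, each library left out, and Csf2rb summed with Csf2rb2. Transcripts were compared with BLAST+ 2.17.0.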

Additional observations from a re-analysis of the deposited data

How the results depend on the processing

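Of the 8 genes, 5 were called in the main test. With each library left out 2 to 4 were called, with library size only and with the DESeq2 Wald test 3, and with limma on log2(FPKM + 1), limma on log2(FPKM + 0.01) and the replicate block 2. Tnfrsf11a and Tnfrsf1b were called in all of these. Over all genes, left-out libraries gave 1087 to 1394 calls, with fewer samples, against 1868. Library size only moves every gene by about -0.10, and on it and on log2(FPKM + 1) and log2(FPKM + 0.01) Traf6 turned to -0.049, -0.041 and -0.048, Csf1r to -0.022, -0.022 and -0.022, Csf2ra fell to 0.11, 0.11 and 0.11 and Tnfrsf1a to 0.080, 0.079 and 0.081, none called. Csf3r was not called on log2(FPKM + 1) (0.28) and log2(FPKM + 0.01) (0.38). The DESeq2 Wald test gave 0.48 for Csf3r and 0.19 for Tnfrsf1a, not called. Without a filter Csf2rb was called at 0.15, and the cause was not tested. Left-out libraries gave -0.010 (without vehicle replicate 1) to 0.12 for Traf6, 0.18 to 0.26 for Csf2ra, 0.089 to 0.22 for Csf2rb, 0.46 to 0.51 for Csf3r and 0.18 to 0.19 for Tnfrsf1a. The labels number the libraries of both groups alike, but same-numbered libraries did not deviate together over all genes (correlation -0.030 across 12590 genes). With 2 libraries per group this cannot tell whether the numbers mark pairs. With the replicate block Csf2ra (0.22), Csf3r (0.48) and Tnfrsf1a (0.18) were not called.

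Called genes of the lists changed as follows. The inhibitors of TRAF6 and RANK went from 0 to 1 (upper quartile factors, library size only, 10 counts in every library, limma-voom, the robust fit, limma on log2(FPKM + 1) and on log2(FPKM + 0.01)). The TNF receptor complex had 2 with library size only. The M-CSF receptor list had 1 with library size only, the DESeq2 Wald test and the replicate block, and 0 on both FPKM scales. The GM-CSF and G-CSF receptor list had 3 with the robust fit. With libraries left out the counts ranged from 3 to 6 for RANK and TRAF6 transducers, 0 to 2 for the TNF receptor complex, the M-CSF receptor list and the GM-CSF and G-CSF receptor list, 0 to 1 for receptor shedding and 2 to 3 for other TNF receptors. For pathway genes called in the main test, 279 of the results under alternatives kept direction and call, 51 kept only the direction and 0 reversed. With 2 libraries per group, a gene that did not pass may still differ.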

Other observations

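Libraries of the same group agreed closely for the 8 genes, with at most a 1.10-fold difference within a group. Some genes of their pathways did not. Of the 107 tested genes of the 8 and of the lists with at least 100 counts on average, 5 differed by over 1.5-fold between libraries of the same group, a limit set after the data were seen. Egr2, an early-response factor of myeloid cells, was at 29.0 and 95.4 CPM with DI and 65.0 and 55.6 CPM with vehicle. Tnfaip3, which encodes the deubiquitinase A20, was at 52.8 and 90.1 CPM with DI and 43.3 and 87.8 CPM with vehicle. Map3k7, which encodes the kinase TAK1, was at 66.1 and 76.5 CPM with DI and 32.6 and 67.7 CPM with vehicle. Grb2, an adaptor of the M-CSF receptor, was at 265 and 270 CPM with DI and 275 and 144 CPM with vehicle. Adam10, a sheddase, was at 160 and 246 CPM with DI and 237 and 248 CPM with vehicle. None of the 5 was called by edgeR's quasi-likelihood test (adjusted p between 0.331 and 0.965), and their mean differences between groups say little.

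Markers of other cells were low. B cell markers were at 21.3 and 23.5 CPM with DI and 10.7 and 11.8 CPM with vehicle in sum, nearly all of it Ighm, the immunoglobulin mu chain, which was higher with DI (log2 fold change 1.03), while Pax5 was at 0 in every library. Stromal markers summed to between 41.4 and 51.4 CPM, and none was called. Monocyte markers summed to between 5.76 and 6.90 CPM. Those of T and NK cells, mast cells and basophils, dendritic cells and erythroid cells summed to at most 2.76 CPM in a library. No marker of dendritic or erythroid cells had enough counts to be tested. For T and NK cells and for mast cells and basophils 1 gene each was tested, and neither was called. The part of such other cells in the levels of the 8 genes was not tested.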
